A study of Mus musculus with 12 samples.

Results

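The genes described here carry or receive costimulatory and coinhibitory signals between dendritic cells and T cells. They were taken by symbol: Cd80, Cd86, Cd40, Cd83, Cd274, Pdcd1lg2, Icosl, Btla, Havcr2 and Marcksl1, 10 of the 27179 genes in the count table, and all 10 passed the filter on low counts. RNA sequencing had been done on the 2 kinds of conventional dendritic cell of the mouse spleen, cDC1 and cDC2, sorted from female C57/BL6 mice. The groups were cDC1 of zfp366-/- mice (KO), cDC1 of wild-type mice (WT), cDC2 of KO mice and cDC2 of WT mice, with 3 libraries each. Each library came from 1 numbered mouse pool, and every pool gave 1 cDC1 and 1 cDC2 library. No treatment beyond the enzymes that free the cells (collagenase and DNAse) is given, and the ages of the mice are not given in the labels. The zinc finger protein DC-SCRIPT, found in dendritic cells, is encoded by Zfp366, and the comparisons ask how its loss alters each subset. The common name of the set, ligands, is not right for all of it: Cd40, Btla and Havcr2 encode receptors, and Marcksl1 encodes an intracellular protein of the MARCKS family.

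A T cell that recognises its peptide on a dendritic cell also reads the surface proteins around it. CD80 and CD86 bind CD28, which favours activation, or CTLA-4, which restrains it, while PD-L1 (Cd274) and PD-L2 (Pdcd1lg2) bind PD-1 and dampen the response. CD40 receives a signal back from the T cell and drives the maturation of the dendritic cell, in which CD80, CD86 and CD83 increase at the surface. RNA levels, as given here, are not surface protein.

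The libraries held 11330503 to 36761685 counts. Levels are in CPM (counts per 1000000 counts of the genes tested, with library totals scaled by the trimmed mean of M values, TMM). Changes are log2 fold changes with a standard error (SE), and a gene was called at an adjusted p below 0.05 in edgeR's quasi-likelihood test over 13415 genes. In cDC1, Zfp366 had 48.8, 48.4 and 45.4 CPM in KO libraries, against 152, 89.2 and 67.5 CPM in WT libraries. In cDC2 it had 55.0, 80.6 and 65.1 CPM in libraries labelled KO, against 52.6, 62.4 and 57.4 CPM in WT libraries. The groups did not overlap in cDC1 (-1.12, SE 0.27, adjusted p = 0.0326) and overlapped in cDC2 (0.22, SE 0.27, adjusted p = 1). The cDC1 call of Zfp366 held in 14 of 20 alternatives; it ended when any 1 KO library of cDC1 was left out, without cDC1 WT replicate 2, without cDC2 KO replicate 3 and with only the cDC1 libraries (adjusted p up to 0.142), and its change without cDC1 WT replicate 1 was -0.72. A count per gene does not show which exons the reads cover, so it cannot show whether the allele is disrupted in either subset. By the labels, the KO libraries of cDC1 and cDC2 came from the same mouse pools. The 7 cDC1 markers summed to 4098 to 4465 CPM in KO cDC1 and 4694 to 6011 CPM in WT cDC1, against 58.4 to 80.6 and 29.1 to 199 CPM in the cDC2 libraries labelled KO and WT. That sum joins genes that went opposite ways in cDC1, and 1 of the 7 was called lower in KO cDC1 and none higher. Xcr1 had 431 to 502 CPM in KO and 871 to 1068 CPM in WT, and Itgae 10.1 to 11.3 and 131 to 208 CPM. Cd8a was higher, at 1482 to 1557 CPM in KO and 683 to 1190 CPM in WT. The 7 cDC2 markers summed to 473 to 486 CPM in KO cDC1, against 57.4 to 76.2 CPM in WT cDC1, and each of the 7 passed the test. The monocyte markers had sums of 531 to 674 CPM in KO cDC1, against 93.7 to 176 CPM in WT cDC1. Ccr2 made up most of the sum in KO cDC1 (464 to 625 CPM, against 42.6 to 114 CPM in WT cDC1). Of these 5 markers, 1 was called higher in KO cDC1 and none lower. The T cell markers summed to 3.90 to 6.72 CPM in KO cDC1, against 6.38 to 9.24 CPM in WT cDC1. Of the 6 other marker lists, those of NK cells, B cells, erythroid cells with platelets, and neutrophils had no gene called by genotype in either subset, and those of plasmacytoid dendritic cells and macrophages had 1 lower gene each in KO cDC1. Their summed levels overlapped by genotype in cDC1, except for NK cells (2.83 to 3.64 CPM in KO and 0.605 to 2.78 CPM in WT). Pax5 of B cells and Ly6g of neutrophils were at 0 in WT cDC2. The part of these marker levels in the results below was not tested.

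Libraries numbered 1 stood apart from those numbered 2 and 3 in every group. The chi-square per gene between 2 libraries of a group was 69.5 to 426 with number 1 and 14.1 to 54.5 between numbers 2 and 3, so no library duplicated another. The KO change of each of the 10 genes in cDC1 is therefore also given with numbers 2 and 3 only, where the spread between libraries is smaller, and without cDC1 WT replicate 1. Leaving out libraries that stood apart in these same data lowers the spread by itself. With numbers 2 and 3 only, 6438 of 13461 genes were called in KO against WT cDC1. An adjusted p from that setting is thus not on a par with one from the fit to 12 libraries. Nothing in the labels says whether the pools differ by more than their mice, so each p measures the spread between the libraries of its fit.

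The stretches upstream of the start are shown for Cd274, Pdcd1lg2 and Marcksl1, the members called higher in KO cDC1, and for Btla, the other member whose window held a searched motif. They come from the 250 bases before the start that RefSeq's promoter windows give in GRCm38.p6, plus strand, 5′ to 3′, without bases that GENCODE marks as untranslated exon of any transcript. That start lies inside the annotated gene for Cd274 (5.33 kb past its first base) and Btla (632 bases), and at its first base for Pdcd1lg2 and Marcksl1. Capitals mark the IRF core GAAANNGAA and the NF-kB core GGGANNTTC, searched on both strands from 250 bases before to 50 after the start.
Cd274 (chr19:29367309-29367437): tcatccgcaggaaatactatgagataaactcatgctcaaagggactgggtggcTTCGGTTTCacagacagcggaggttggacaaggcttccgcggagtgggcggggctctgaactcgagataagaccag
Pdcd1lg2 (chr19:29410669-29410918): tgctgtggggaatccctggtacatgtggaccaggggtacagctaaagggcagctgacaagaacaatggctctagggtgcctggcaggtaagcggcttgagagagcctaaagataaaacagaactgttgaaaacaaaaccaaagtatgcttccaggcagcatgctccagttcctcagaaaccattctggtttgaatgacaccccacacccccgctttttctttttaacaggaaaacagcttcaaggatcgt
Marcksl1 (chr4:129513331-129513580): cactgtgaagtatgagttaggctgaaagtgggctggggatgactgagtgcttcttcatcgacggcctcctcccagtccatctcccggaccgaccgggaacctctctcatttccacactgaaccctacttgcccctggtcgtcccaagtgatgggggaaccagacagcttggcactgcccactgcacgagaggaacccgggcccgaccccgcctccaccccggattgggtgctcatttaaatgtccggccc
Btla (chr16:45224087-45224314): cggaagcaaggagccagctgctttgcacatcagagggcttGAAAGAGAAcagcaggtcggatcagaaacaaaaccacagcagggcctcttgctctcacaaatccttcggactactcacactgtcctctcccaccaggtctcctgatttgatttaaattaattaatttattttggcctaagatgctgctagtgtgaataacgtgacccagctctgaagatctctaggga
The Cd274 window holds both motifs on the minus strand, the IRF core at -76 to -68 (printed as TTCGGTTTC) and the NF-kB core at -154 to -146 (GAATATCCC on the plus strand), which lies before the printed stretch. The Btla window holds the IRF core on the plus strand at -210 to -202. A window was at hand for 7 of the 10 genes (not for Cd86, Cd40 and Cd83), and the other 5, Pdcd1lg2 and Marcksl1 among them, held neither motif in these letters. Over 32851 windows of the same length, 8.56% held the IRF core and 3.94% the NF-kB core. The windows also differ in composition: G and C make up 60.4% of the 250 bases of Marcksl1, with 12 CpG pairs, 50.4% of that of Cd274, with 11, and 48.4% of that of Pdcd1lg2, with 3.

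In cDC1, 3 of the 10 genes rose in KO libraries, namely Pdcd1lg2, Cd274 and Marcksl1, and none fell. Over all genes tested, 3.60% were called higher and 1.72% lower in this comparison. A further 5 genes, Cd80, Cd86, Cd40, Btla and Havcr2, had every KO library below every WT library without passing the test. With the 3 that rose, 8 of 10 genes had groups that did not overlap, against 26.9% of all genes tested. In cDC2 no member was called, nor was any of the 13415 genes (0%) by edgeR, DESeq2 or limma-voom, and 271 genes had an unadjusted p under 0.05 in edgeR, none of them a member. In that subset 1 of 10 genes had groups that did not overlap, against 5.88% of all. For the difference between the KO effect in cDC1 and in cDC2, 1.42% of genes passed and no member did, so a change called in cDC1 alone was not shown to be particular to cDC1. Over the 10 genes the median KO change was -0.15 in cDC1 and 0.05 in cDC2, against -0.0008 and 0.02 over all genes.

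**Figure D1:**
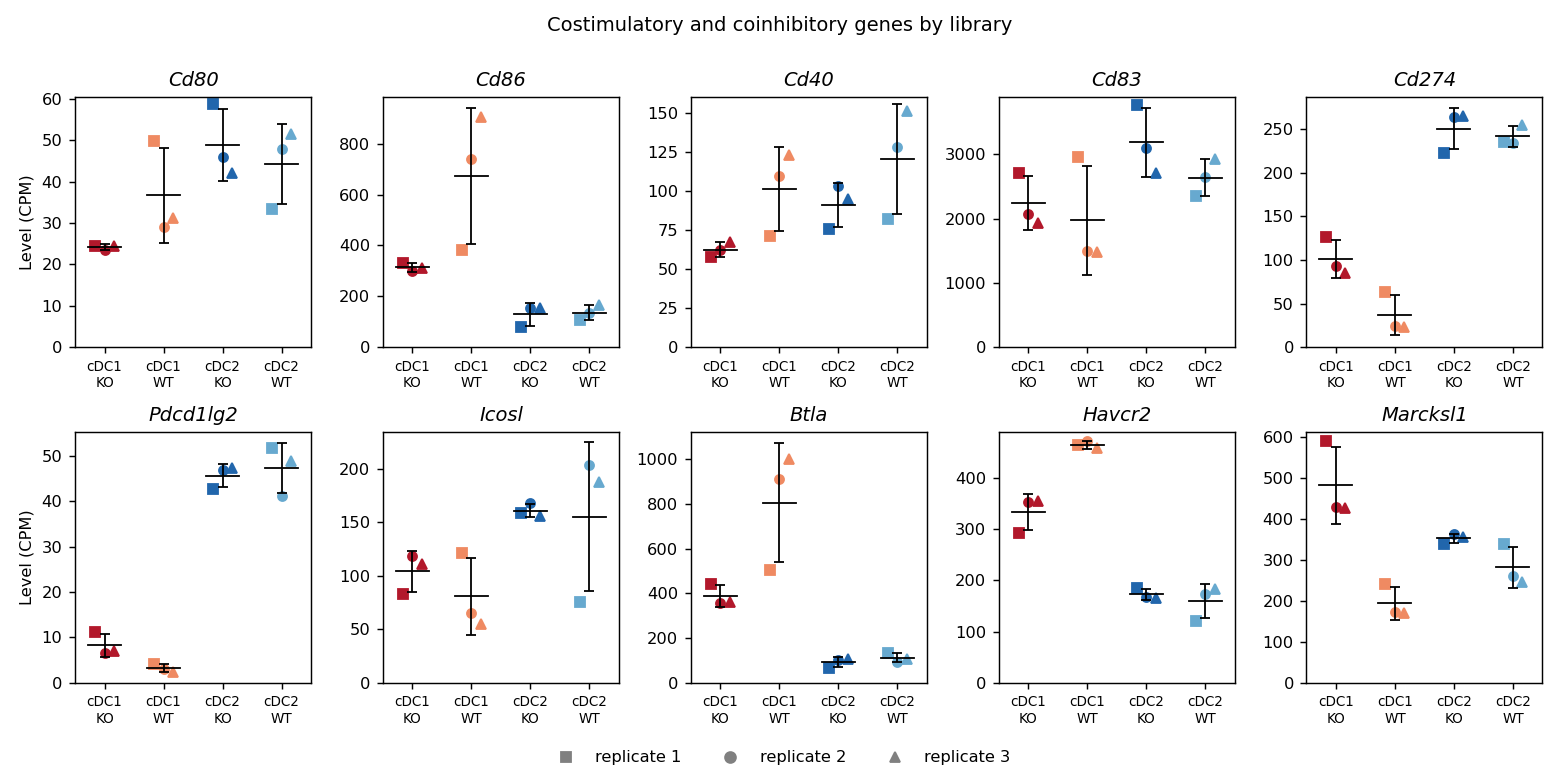
Level of each of the 10 genes in CPM (vertical axes start at 0) in the 12 libraries, by group, KO left of WT within each subset. Symbols give the replicate number, horizontal lines the mean and bars ± 1 SD (n = 3). Cd274, Pdcd1lg2 and Marcksl1 lie higher in KO than in WT cDC1 in all 3 libraries, while the cDC2 groups overlap for 9 of the 10 genes.

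PD-L2 and PD-L1, the ligands of PD-1, both rose in KO cDC1. Pdcd1lg2 (Entrez 58205, chr19:29410919-29472927) had 11.2, 6.63 and 7.002 CPM in KO cDC1, against 4.07, 3.11 and 2.43 CPM in WT cDC1. All KO libraries lay above all WT libraries at these low levels, and the change was 1.37 (SE 0.26, adjusted p = 0.00839, edgeR). Cd274 (Entrez 60533, chr19:29362107-29388095) had 126, 93.5 and 84.6 CPM in KO cDC1, against 63.5, 24.0 and 23.5 CPM in WT cDC1. The groups did not overlap, WT replicate 1 was far above the other WT libraries, and the change was 1.46 (SE 0.34, adjusted p = 0.0272). Fewer cells with a transcript and less RNA per cell cannot be told apart in such bulk libraries, here or for any gene below. The call of Cd274 was lost when KO replicate 1, 2 or 3 of cDC1 (adjusted p = 0.118, 0.0739 and 0.0571) or WT replicate 2 or 3 (0.135 and 0.119) was left out and with only the 6 cDC1 libraries (0.112). Without cDC1 WT replicate 1 its change was 2.10 (adjusted p = 1.3e-04). That of Pdcd1lg2 was lost without cDC1 WT replicate 2 (0.0533) and in none of the other 19 alternatives.

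In cDC2 the PD-1 ligands were far more abundant, and the genotypes overlapped. Cd274 had 223, 264 and 265 CPM in cDC2 labelled KO, against 236, 234 and 255 CPM in cDC2 of WT mice. Pdcd1lg2 had 42.8, 46.9 and 47.3 CPM in cDC2 labelled KO, against 51.7, 41.2 and 49.0 CPM in cDC2 of WT mice. These groups overlapped, with changes of 0.05 (SE 0.33) and -0.05 (SE 0.25) and adjusted p = 1 for both. The difference of the KO effects was 1.42 (SE 0.36, adjusted p = 0.0825) for Pdcd1lg2 and 1.40 (SE 0.47, adjusted p = 0.253) for Cd274. Among 20 alternatives it passed for Pdcd1lg2 in 4 (DESeq2, without cDC1 WT replicate 1, numbers 2 and 3 only, and length offsets) and for Cd274 in 2. Between subsets, Pdcd1lg2 was lower in cDC1 than in cDC2 by -2.46 in KO (SE 0.26, adjusted p = 4.3e-05) and -3.88 in WT (SE 0.28, adjusted p = 1.4e-06). Cd274 was lower by -1.30 in KO (SE 0.34, adjusted p = 0.0201) and -2.71 in WT (SE 0.36, adjusted p = 1.5e-04). In KO, the call of Cd274 ended when replicate 2 or 3 of cDC1 (0.0851 and 0.0956) or of cDC2 (0.0673 and 0.0672) was left out.

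Both genes lie on chromosome 19, 22.8 kb apart. Cd274 overlaps Plgrkt, a plasminogen receptor gene, in the annotation, and the use of strand in the counting is not given in the sources used here, so reads could be shared. Plgrkt had 26.5 ± 2.06 CPM in KO cDC1 and 41.8 ± 15.3 CPM in WT cDC1 (SD, n = 3 each), a change of -0.66 (SE 0.25, adjusted p = 0.179), opposite in sign to that of Cd274. Around the pair, Jak2 (-0.07, SE 0.38), Ric1 (0.27, SE 0.33) and Ermp1 (0.10, SE 0.25) were not called in KO against WT cDC1.

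The B7 ligands of CD28 and CTLA-4 were lower in KO cDC1 without passing the test. Cd86 (Entrez 12524, chr16:36568956-36666158) had 330.3, 298 and 313 CPM in KO cDC1, against 380.4, 739 and 903 CPM in WT cDC1. The KO libraries were close to each other and all below the WT libraries, whose number 1 lay nearest to them (-1.10, SE 0.33, adjusted p = 0.0827). Its p passed in 4 of 20 alternatives, namely DESeq2 (0.017), without cDC1 WT replicate 1 (-1.38, 0.00714), without cDC2 KO replicate 1 (0.0473) and numbers 2 and 3 only (-1.45, 7.8e-06). Cd80 (Entrez 12519, chr16:38457430-38495958) had 24.5, 23.4 and 24.5 CPM in KO cDC1, against 49.8, 28.9 and 31.3 CPM in WT cDC1. Here too the groups did not overlap (-0.60, SE 0.25, adjusted p = 0.22). Much of the size of that change rested on WT replicate 1, without which it was -0.31. In cDC2, Cd86 had 78.7, 154 and 155 CPM in libraries labelled KO, against 107, 136 and 167 CPM in WT libraries (-0.08, SE 0.33). Cd80 had 58.7, 45.9 and 42.0 CPM in cDC2 labelled KO, against 33.3, 47.9 and 51.5 CPM in cDC2 of WT mice (0.14, SE 0.25). Both cDC2 pairs overlapped, with adjusted p = 1.

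The B7 genes differed in their subset bias. Cd86 was higher in cDC1 than in cDC2, by 1.28 in KO (SE 0.34, adjusted p = 0.021) and 2.30 in WT (SE 0.35, adjusted p = 4.2e-04). Cd80 was lower in cDC1 than in cDC2 by -1.02 in KO (SE 0.25, adjusted p = 0.0161), and in WT its difference was -0.27 (SE 0.25, adjusted p = 0.498), or -0.71 with numbers 2 and 3 only (adjusted p = 8.5e-04). The KO calls were less firm than the WT call of Cd86, which held in all 21 alternatives. That of Cd86 ended when KO replicate 1, 2 or 3 of cDC1 was left out (0.065, 0.0549 and 0.061). That of Cd80 ended without the same libraries (0.0598, 0.0714 and 0.0641), with length offsets (0.0552) and when mouse pools were blocked (0.074). As a difference of the KO effects, the fit gave -1.02 (SE 0.47, adjusted p = 0.515) for Cd86 and -0.75 (SE 0.35, adjusted p = 0.552) for Cd80.

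CD40, the receptor through which T cells drive dendritic cell maturation, and CD83, a maturation marker, were not called in any comparison in the fit to 12 libraries. Cd40 (Entrez 21939, chr2:165055614-165071654) had 57.6, 62.7 and 67.3 CPM in KO cDC1, against 71.3, 109.6 and 124 CPM in WT cDC1. All KO libraries lay below all WT libraries (-0.70, SE 0.26, adjusted p = 0.168), and the p passed without cDC1 WT replicate 1 (-0.89, 0.0222) and with numbers 2 and 3 only (-0.87, 1.6e-04). In cDC2 it had 75.7, 103 and 95.1 CPM in libraries labelled KO, against 82.1, 128 and 151 CPM in WT libraries. These overlapped (-0.40, SE 0.26, adjusted p = 1), and with numbers 2 and 3 only the change was -0.49 (adjusted p = 0.0307). Cd83 (Entrez 12522, chr13:43785112-43803133) had 2718, 2075 and 1939 CPM in KO cDC1, against 2959, 1492 and 1481 CPM in WT cDC1. Number 1 was the highest library in both genotypes, and the groups overlapped (0.18, SE 0.30, adjusted p = 0.787). In cDC2, Cd83 had 3768, 3101 and 2704 CPM in libraries labelled KO, against 2356, 2644 and 2924 CPM in WT libraries, again overlapping (0.27, SE 0.30, adjusted p = 1). Between cDC1 and cDC2, Cd40 differed by -0.55 in KO (SE 0.26, adjusted p = 0.176) and -0.25 in WT (SE 0.26, adjusted p = 0.553). For Cd40 in KO the difference was called with only the libraries compared (-0.56, 0.0351) and with numbers 2 and 3 only (-0.62, 0.00137). Cd83 differed by -0.51 in KO (SE 0.30, adjusted p = 0.267) and -0.42 in WT (SE 0.30, adjusted p = 0.36). In WT the lack of a call for Cd83 rested on 1 library: without cDC1 WT replicate 1 the difference was -0.83 and called (adjusted p = 0.0253). With numbers 2 and 3 only, Cd83 was called lower in cDC1 in both genotypes, by -0.54 in KO (0.00239) and -0.89 in WT (6.6e-05).

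Icosl, which encodes the ligand of the T cell costimulator ICOS, was not called in any comparison in the fit to 12 libraries. Icosl (Entrez 50723, chr10:78069368-78079525) had 82.5, 118 and 111 CPM in KO cDC1, against 121, 65.3 and 55.0 CPM in WT cDC1. The groups overlapped, with WT replicate 1 above all KO libraries and the other WT libraries below them. The change was 0.37 (SE 0.36, adjusted p = 0.631), and 0.91 with numbers 2 and 3 only (adjusted p = 9.3e-05). In cDC2 it had 159, 168 and 156 CPM in libraries labelled KO, against 75.0, 203 and 187 CPM in WT libraries (0.05, SE 0.36, adjusted p = 1). Between cDC1 and cDC2 it differed by -0.63 in KO (SE 0.36, adjusted p = 0.259) and -0.95 in WT (SE 0.37, adjusted p = 0.0877). The WT difference was called without cDC1 WT replicate 1 (-1.36, 0.0158), without cDC2 WT replicate 1 (-1.28, 0.0107) and with numbers 2 and 3 only (-1.69, 4.0e-07). The KO difference was called with only the libraries compared (-0.64, 0.0299) and with numbers 2 and 3 only (-0.51, 0.00363).

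The inhibitory receptors BTLA, which binds HVEM (Tnfrsf14), and TIM-3 (Havcr2), whose ligands include galectin-9, were both cDC1-biased. Btla (Entrez 208154, chr16:45223705-45252895) had 443, 357 and 363 CPM in KO cDC1, against 502, 910.2 and 1002 CPM in WT cDC1. The groups did not overlap, WT replicate 1 lay nearest to the KO libraries, and the adjusted p just missed the threshold (-1.05, SE 0.28, adjusted p = 0.0502). It passed in 7 of 20 alternatives, DESeq2 (0.00461), RLE scaling (0.044) and length offsets (0.0248) among them, and was 0.00378 without cDC1 WT replicate 1, 0.0365 without cDC2 KO replicate 1 and 0.0439 without cDC2 WT replicate 1. With numbers 2 and 3 only the change was -1.43. Havcr2 (Entrez 171285, chr11:46454931-46481255) had 293, 353 and 354 CPM in KO cDC1, against 463, 472 and 458 CPM in WT cDC1. The WT libraries were within a narrow range and all above the KO libraries, yet the change was not called (-0.48, SE 0.20, adjusted p = 0.213).

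In cDC2, Btla had 67.7, 103 and 108 CPM in libraries labelled KO, against 133, 94.5 and 106 CPM in WT libraries (-0.26, SE 0.28, adjusted p = 1). Havcr2 had 186, 167 and 165 CPM in cDC2 labelled KO, against 121, 173 and 183 CPM in cDC2 of WT mice (0.12, SE 0.20, adjusted p = 1). Both overlapped by genotype and lay well below the cDC1 levels. Btla was higher in cDC1 than in cDC2 by 2.06 in KO (SE 0.29, adjusted p = 4.1e-04) and 2.85 in WT (SE 0.30, adjusted p = 2.4e-05). Havcr2 was higher by 0.95 in KO (SE 0.20, adjusted p = 0.00606) and 1.55 in WT (SE 0.20, adjusted p = 1.3e-04). These 4 calls held in all 21 alternatives. The difference of the KO effects was -0.79 (SE 0.40, adjusted p = 0.599) for Btla and -0.60 (SE 0.28, adjusted p = 0.535) for Havcr2.

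Marcksl1, which encodes an actin- and calmodulin-binding relative of MARCKS, was, of the 10 genes, the one whose KO change in cDC1 was called in every alternative run. Marcksl1 (Entrez 17357, chr4:129513581-129515981) had 591, 431 and 427 CPM in KO cDC1, against 241, 172 and 170.2 CPM in WT cDC1. The groups did not overlap. The change was 1.31 (SE 0.23, adjusted p = 0.00399), and the 20 alternatives gave values of 1.14 to 1.501 and an adjusted p of at most 0.0364. In cDC2, Marcksl1 had 339.6, 363 and 356 CPM in libraries labelled KO, against 338.9, 261 and 246 CPM in WT libraries. The lowest KO library was barely above the highest WT library, and the change was 0.32 (SE 0.22, adjusted p = 1), or 0.50 with numbers 2 and 3 only (adjusted p = 0.00921). The difference of the KO effects was 0.99 (SE 0.31, adjusted p = 0.208). Between cDC1 and cDC2 Marcksl1 differed by 0.45 in KO (SE 0.22, adjusted p = 0.185) and -0.54 in WT (SE 0.22, adjusted p = 0.11). The WT difference was called without cDC1 WT replicate 1 (-0.72, 0.0277) and with numbers 2 and 3 only (-0.55, 7.1e-04).

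**Figure D2:**
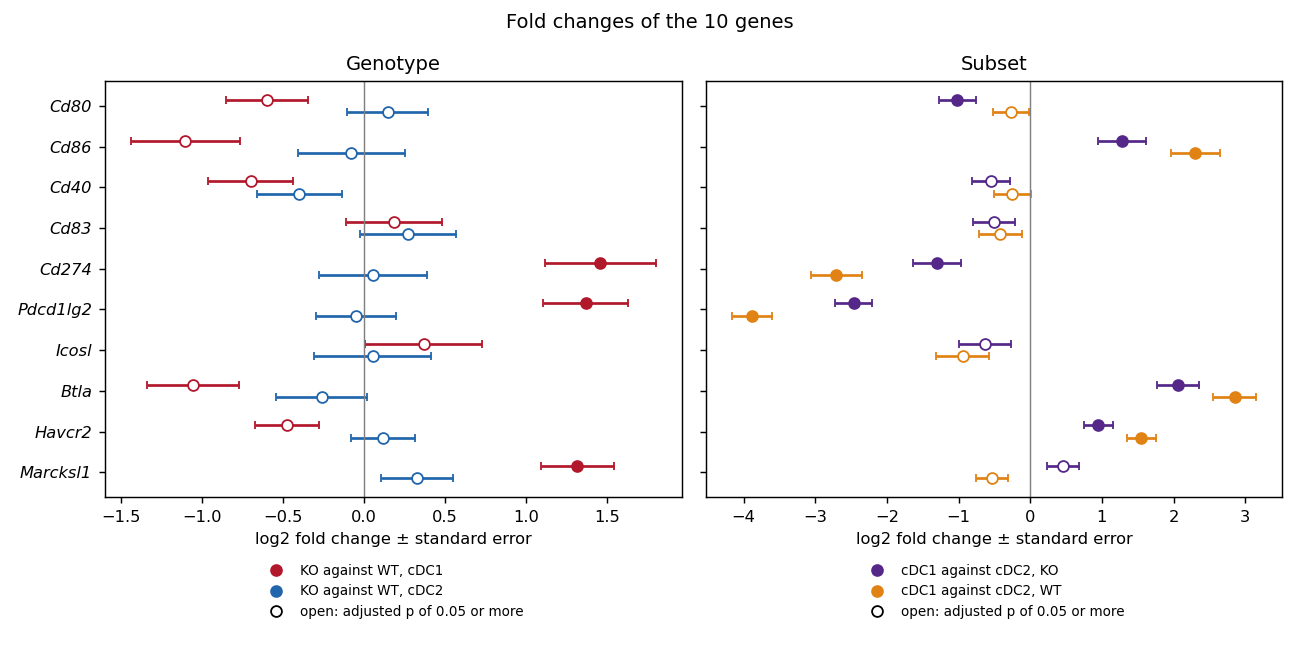
Log2 fold change ± SE of the 10 genes from the fit to 12 libraries (horizontal axes), by genotype on the left and by subset on the right, with filled symbols for an adjusted p below 0.05. On the left only Cd274, Pdcd1lg2 and Marcksl1 in cDC1 are filled, at 1.46, 1.37 and 1.31; on the right Cd86, Btla and Havcr2 are higher and Cd274 and Pdcd1lg2 lower in cDC1 in both genotypes.

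The subsets were also compared within each genotype. Within KO mice, 3 genes (Cd86, Btla and Havcr2) were higher and 3 (Cd80, Cd274 and Pdcd1lg2) lower in cDC1 than in cDC2, against 8.45% and 8.43% of all genes. Within WT mice, 3 (Cd86, Btla and Havcr2) were higher and 2 (Cd274 and Pdcd1lg2) lower, against 10.4% and 10.9% of all genes. Groups did not overlap for 9 of 10 genes within KO mice (47.8% of all genes) and for 6 of 10 within WT mice (32.7%). The comparison of WT subsets and the comparison of genotypes in cDC1 use the same WT cDC1 libraries, so their changes are not independent. The levels are therefore set side by side as a description, which rests on the same libraries and does not remove that dependence. For 5 genes, Cd86, Cd274, Pdcd1lg2, Btla and Havcr2, every KO cDC1 library lay between the WT cDC1 libraries on one side and all 6 cDC2 libraries on the other, as it did for 5.35% of all genes tested. These 5 are also the members called between the WT subsets, while that share counts genes that do not differ between subsets as well. Marcksl1 in KO cDC1 was above all libraries of the other groups, as were 4.76% of all genes. Cd80 and Cd40 in KO cDC1 were below all libraries of the other groups, as were 2.26% of all genes, and Cd83 and Icosl overlapped with at least 1 of them.

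Per unit of gene length the order of the genes also differed between groups. Levels here are RPKM (CPM divided by the counted gene length in kilobases), which adjusts for length when genes are compared. It does not remove the length trends that differ between libraries, given below, and their part in the order was not tested. Cd83 came first in all groups, at 1046 ± 194 RPKM in KO cDC1, 922 ± 396 in WT cDC1, 1488 ± 251 in cDC2 labelled KO and 1231 ± 132 in WT cDC2 (SD, n = 3 each). Pdcd1lg2 came last in all, at 2.42 ± 0.740 RPKM in KO cDC1, 0.938 ± 0.241 in WT cDC1, 13.4 ± 0.733 in cDC2 labelled KO and 13.9 ± 1.60 in WT cDC2. Between these ends, Marcksl1 was second in KO cDC1 (302 ± 58.6 RPKM), in cDC2 labelled KO (220 ± 7.45 RPKM) and in WT cDC2 (176 ± 31.3 RPKM). In each of these groups it lay apart from the genes above and below it. In WT cDC1 it was the fifth (121 ± 25.0 RPKM), apart from Havcr2 and Cd40. Cd86, Havcr2 and Btla followed at 124 ± 6.38, 122 ± 12.8 and 119.8 ± 14.8 RPKM in KO cDC1, overlapping each other, and they held ranks 2 to 4 in WT cDC1, where Cd86 overlapped Btla and Btla overlapped Havcr2. Cd274 was the third in cDC2 labelled KO (68.9 ± 6.51 RPKM) and the fourth in WT cDC2 (66.4 ± 3.22 RPKM). It was eighth in KO cDC1 (27.9 ± 6.03 RPKM) and ninth in WT cDC1 (10.2 ± 6.31 RPKM), where it overlapped Cd80 just above it. In cDC2 the genes at ranks 3 to 7, Cd274, Havcr2, Icosl, Cd40 and Cd86 in some order, each overlapped the next.

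**Figure D3:**
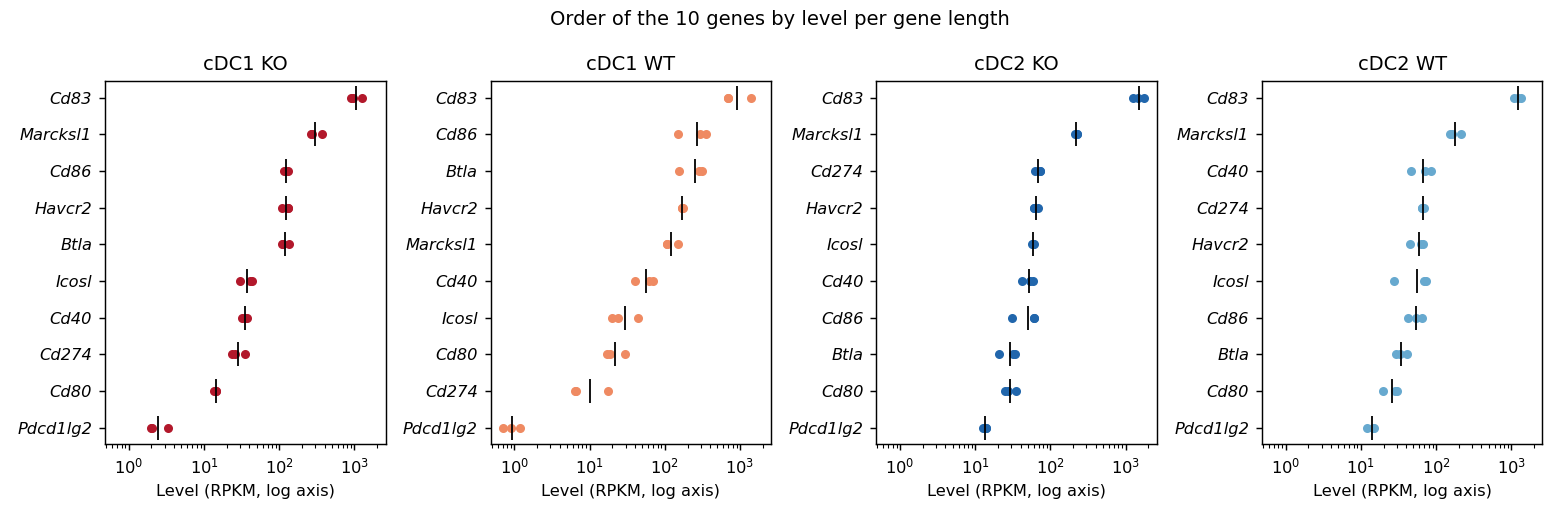
Level per gene length (RPKM, log axis) of the 10 genes in each group, ordered by the group mean from top to bottom. Points are the 3 libraries of a group and lines the mean. Marcksl1 is second from the top in KO cDC1, cDC2 labelled KO and WT cDC2, and the fifth in WT cDC1. Pdcd1lg2 is last in all groups.

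Across the 12 libraries some of the 10 genes ran together and others ran opposite. These are Pearson correlations of log2 CPM, given as a description, since all libraries share the subset and genotype structure and each value shares its library's depth. Cd86 with Btla (r = 0.97), Cd274 with Pdcd1lg2 (0.96) and Btla with Havcr2 (0.91) ran together, while Pdcd1lg2 with Havcr2 (-0.98), Pdcd1lg2 with Btla (-0.96) and Cd274 with Btla (-0.94) ran against each other. Cd40 ran with none of these (0.01 with Cd86, 0.03 with Cd274, -0.20 with Btla and 0.23 with Pdcd1lg2). The values of Marcksl1 ran from -0.72 with Cd40 to 0.53 with Cd274, and that with Cd86 was -0.43. The search for similar genes covered 8251 protein-coding genes whose log2 CPM averaged 3 or more, without those under predicted-gene or clone names. Among them the closest to Cd274 were Ptpn12, Ptgs2 and St8sia6 (0.99 each). The closest to Pdcd1lg2 were Slc14a1, Klrd1 and Bbs9 (0.99 each), to Btla Il15, Serpinb6b and Aif1 (0.99 each), and to Havcr2 Hsp90b1 (0.99), Nucb2 (0.99) and Ralb (0.98). Cd86 was nearest to Slc25a20 (0.99), Txn1 and Snx2 (0.98 each), Icosl to Lyst (0.99), Kmt2b and Itpr3 (0.98 each), and Cd83 to Fosl2 (0.96), Trp53inp2 (0.95) and Phtf2 (0.94). Marcksl1 was nearest to Rtn4rl1, Oas3 (0.96 each) and Anxa2 (0.95), and Cd40 to Cenpw, Arpc5l (0.96 each) and Rab29 (0.95). Cd80 had the weakest neighbours, Kcnip3 (0.92), Slc12a2 (0.90) and Spi1 (0.89).

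The libraries numbered 1 weighed differently on each gene. Without cDC1 WT replicate 1 the KO change in cDC1 was 1.58 for Pdcd1lg2 (adjusted p = 0.00296), -1.30 for Btla (0.00378), 0.60 for Cd83 (0.0869), 0.79 for Icosl (0.118), -0.31 for Cd80 (0.317) and -0.47 for Havcr2 (0.104). With numbers 2 and 3 only it was 1.88 for Cd274 (3.8e-07), 1.27 for Pdcd1lg2 (2.6e-04), 1.30 for Marcksl1 (2.1e-06), -0.35 for Cd80 (0.0441) and -0.42 for Havcr2 (0.00409). In that setting all 10 genes were called in KO against WT cDC1, 5 of them higher, but so were 6438 of 13461 genes. There Cd83 (0.41) and Icosl (0.91) joined the 3 genes that were higher. Gene length also moved with the libraries: Spearman's correlation, across genes, of gene length with a gene's deviation from its mean log2 CPM was 0.30, 0.41 and 0.32 in KO cDC1, against 0.45, -0.24 and -0.34 in WT cDC1. With length offsets in the fit the changes were 1.33 for Cd274, 1.21 for Pdcd1lg2 and 1.31 for Marcksl1, all called.

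**Figure D4:**
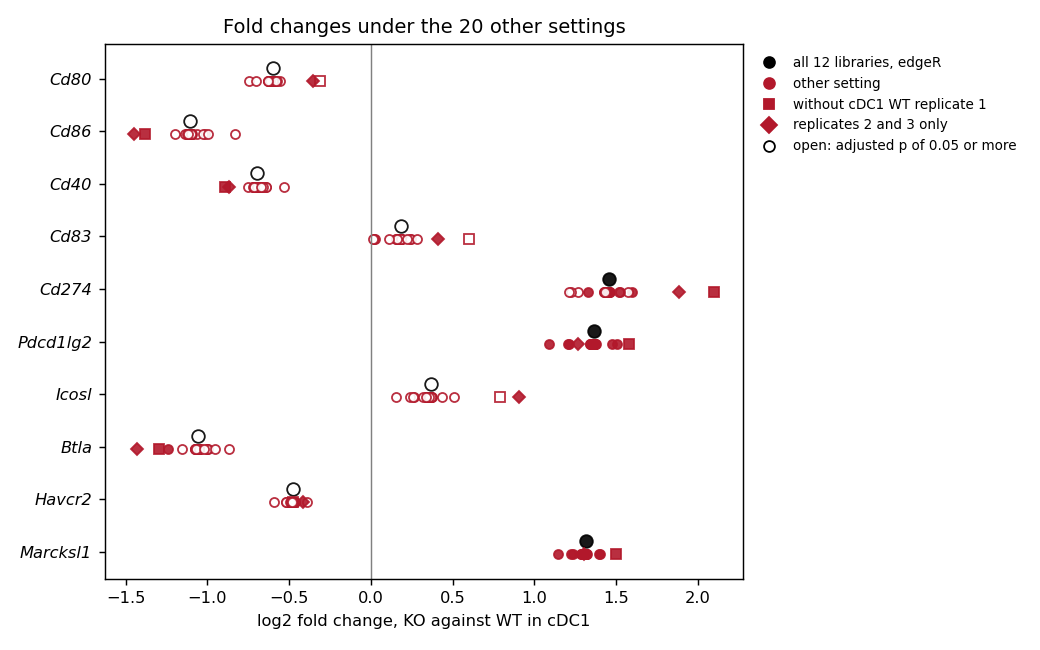
Log2 fold change of KO against WT in cDC1 (horizontal axis) for the 10 genes, in the fit to all 12 libraries (black) and in 20 other settings (red), with filled symbols for an adjusted p below 0.05. Marcksl1 is filled throughout, Pdcd1lg2 in 19 of 20 settings and Cd274 in 14, and the fits without cDC1 WT replicate 1 (squares) or with numbers 2 and 3 only (diamonds) lie farthest out for Cd86, Btla and Cd274.

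Costimulatory ligands of the TNF superfamily, the other large family by which dendritic cells signal to T cells, were also examined. Of 7 ligands, 4 rose in KO cDC1, none fell and 3 were not called, against 3.60% higher and 1.72% lower over all genes. Their median change was 2.13, against -0.0008 over all genes, but the list was chosen with earlier results of these data known. Tnfsf9, the ligand of 4-1BB, had 118, 62.4 and 55.0 CPM in KO cDC1, against 18.8, 19.3 and 15.4 CPM in WT cDC1 (2.13, SE 0.38, adjusted p = 0.00529). Tnfsf15, the ligand of DR3, had 20.7, 20.9 and 16.3 CPM in KO cDC1, against 2.86, 1.68 and 1.73 CPM in WT cDC1 (3.20, SE 0.76, adjusted p = 0.0285). Tnfsf14 (LIGHT), a ligand of HVEM, had 9.11, 13.8 and 13.6 CPM in KO cDC1, against 1.15, 3.11 and 3.82 CPM in WT cDC1 (2.17, SE 0.51, adjusted p = 0.0261). For these 3 genes no KO library came near the WT range. Tnfsf4 (OX40L) was at 9.15, 4.15 and 3.69 CPM in KO cDC1, against 0.715, 0.306 and 0.116 CPM in WT cDC1 (3.88, SE 1.03, adjusted p = 0.0487), where WT rests on 13, 6 and 2 reads. The call of Tnfsf9 held in all 20 alternatives. Tnfsf4 was called in 9 of the 20. Tnfsf14 lost its call with limma-voom (0.0943) and when KO replicate 2 or 3 or WT replicate 2 of cDC1 was left out (0.0921, 0.0883 and 0.0908). Tnfsf15 lost it when any 1 cDC1 library other than WT replicate 1 was left out (up to 0.137).

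In cDC2 none of the 7 TNF ligands was called. Tnfsf9 had 42.6, 34.4 and 29.7 CPM in cDC2 labelled KO, against 104, 44.7 and 42.8 CPM in cDC2 of WT mice, and Tnfsf14 had 12.04, 10.4 and 10.5 CPM in cDC2 labelled KO, against 12.6, 51.8 and 47.5 CPM in cDC2 of WT mice. Both lay lower in all libraries labelled KO, by -0.84 (SE 0.37) and -1.76 (SE 0.48) with adjusted p = 1, opposite in sign to cDC1. The margins were narrow: the highest KO and lowest WT library had 42.6 and 42.8 CPM for Tnfsf9, and 12.04 and 12.6 CPM for Tnfsf14. WT replicate 1 was far above the other WT libraries for Tnfsf9 and far below them for Tnfsf14. The difference of the KO effects passed for both, at 2.98 for Tnfsf9 (SE 0.53, adjusted p = 0.0119) and 3.93 for Tnfsf14 (SE 0.70, adjusted p = 0.0127). Between subsets, 2 of the 7 were higher and 1 lower in cDC1 than in cDC2 within KO mice, against 8.45% and 8.43% of all genes. They were Tnfsf18 at 3.40 (SE 0.79), Tnfsf15 at 2.91 (SE 0.74) and Tnfsf8 at -1.82 (SE 0.57). Within WT mice 1 was higher and 4 lower, against 10.4% and 10.9% of all genes. Among them were Tnfsf18 at 3.27 (SE 0.78), Tnfsf8 at -4.54 (SE 0.67), Tnfsf14 at -3.79 (SE 0.53) and Tnfsf9 at -1.84 (SE 0.38). As cDC1 and cDC2 of 1 pool share their mice, the pool was also used as a block (for up to 4 called genes of each list), which ended the KO call of Tnfsf8 (adjusted p = 0.0964). Cd70, the ligand of CD27, was below 1 CPM in all libraries and was not called in any comparison.

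**Figure D5:**
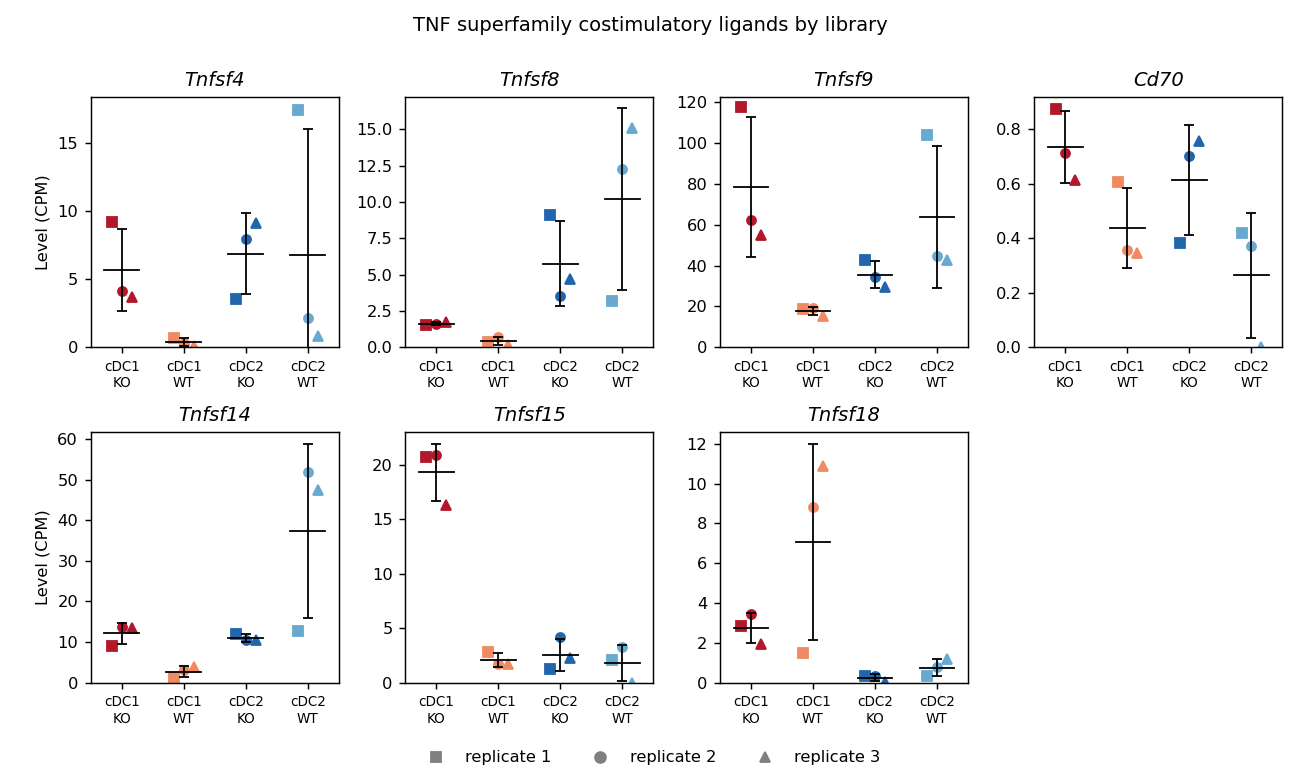
Level in CPM (vertical axes start at 0) of 7 TNF superfamily ligands in the 12 libraries, by group, KO left of WT within each subset. Symbols give the replicate number, lines the mean and bars ± 1 SD (n = 3), ending at 0 where they would pass it. Tnfsf4, Tnfsf9, Tnfsf14 and Tnfsf15 lie higher in KO than in WT cDC1 in all libraries. In cDC2, Tnfsf9 and Tnfsf14 lie lower in the libraries labelled KO, but the nearest KO and WT libraries barely differ.

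Among 17 other immunoglobulin-type and lectin partners tested, 2 rose in KO cDC1, none fell and 15 were not called (median 0.09). Over all genes, 3.60% were called higher and 1.72% lower. Lgals9, which encodes galectin-9, a ligand of TIM-3, averaged 70.8 ± 14.0 CPM in KO cDC1 and 25.2 ± 7.04 CPM in WT cDC1 (SD, n = 3 each; 1.49, SE 0.27, adjusted p = 0.00634). Timd4 (TIM-4), a receptor for phosphatidylserine, averaged 10.8 ± 2.81 CPM in KO cDC1 and 2.38 ± 0.936 CPM in WT cDC1 (2.18, SE 0.44, adjusted p = 0.0125). Neither overlapped by genotype. Lgals9 kept its call in all 20 alternatives, and Timd4 lost it when KO replicate 1 or WT replicate 2 or 3 of cDC1 was left out (0.0701, 0.0806 and 0.0667). The difference of the KO effects was 1.72 for Lgals9 (SE 0.38, adjusted p = 0.046), which passed in 8 of 20 alternatives. Between subsets, 3 of the 17 were higher and 3 lower in cDC1 than in cDC2 within KO mice, against 8.45% and 8.43% of all genes. Within WT mice 2 were higher and 4 lower, against 10.4% and 10.9% of all genes. The pool block ended the WT call of Ceacam1 (adjusted p = 0.0508). Cd24a (heat stable antigen) was among those higher, at 269.6 ± 34.0 CPM in KO cDC1 and 62.6 ± 8.63 CPM in cDC2 labelled KO, and 547 ± 62.1 CPM in WT cDC1 and 49.9 ± 41.7 CPM in WT cDC2. Vtcn1 had no read in any library and was not tested.

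Genes best known from the T cell side of these pathways also had RNA in the dendritic cell libraries. Of 7 tested, 1 rose in KO cDC1, 2 fell and 4 were not called (median -0.54), against 3.60% higher and 1.72% lower over all genes. Cd28 and Cd40lg had at most 16 and 2 reads in a library and were not tested. Cd226 (DNAM-1), an activating receptor for CD155 and CD112, had 92.6, 82.6 and 86.3 CPM in KO cDC1, against 9.51, 4.95 and 6.07 CPM in WT cDC1. No KO library came near the WT range (3.67, SE 0.48, adjusted p = 6.4e-04). Icos had 5.81, 4.94 and 4.87 CPM in KO cDC1, against 29.4, 15.9 and 16.0 CPM in WT cDC1 (-1.97, SE 0.27, adjusted p = 9.9e-04). Ctla4 averaged 4.04 ± 1.77 CPM in KO cDC1 and 30.6 ± 10.2 CPM in WT cDC1 (-2.92, SE 0.57, adjusted p = 0.00935). The changes of Cd226 and Icos held in all 20 alternatives, and that of Ctla4 was lost when KO replicate 1 or 3 or WT replicate 2 of cDC1 was left out (0.0547, 0.0559 and 0.0557). The T cell markers of the same libraries summed to 3.90 to 6.72 CPM in KO cDC1 and 6.38 to 9.24 CPM in WT cDC1. Their part in these changes was not tested. None of the 7 was called in cDC2, and the difference of the KO effects passed for Cd226 (4.47, SE 0.64, adjusted p = 0.00346) and Icos (-2.07, SE 0.37, adjusted p = 0.0136). Between subsets, 4 of 7 were higher and 1 lower in cDC1 within KO mice, against 8.45% and 8.43% of all genes. Within WT mice 3 were higher and 1 lower, against 10.4% and 10.9% of all genes. There the pool block ended the calls of Tigit (adjusted p = 0.0835) and Pdcd1 (0.0867).

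Of 11 genes of CD40 signalling, 1 rose in KO cDC1 and 10 were not called (median 0.28), against 3.60% higher and 1.72% lower over all genes. Tnfaip3, which encodes A20, a brake on NF-kB, had 1296, 740.4 and 678 CPM in KO cDC1, against 278, 172 and 147 CPM in WT cDC1. No KO library came near the WT range, and the change of 2.19 (SE 0.30, adjusted p = 9.4e-04) was called in all 20 alternatives. In cDC2 none of the 11 was called, and the difference of the KO effects passed for Tnfaip3 (2.22, SE 0.41, adjusted p = 0.0162). Within KO mice 1 of the 11 was higher and 3 lower in cDC1 than in cDC2, against 8.45% and 8.43% of all genes. Within WT mice none was higher and 4 were lower, against 10.4% and 10.9% of all genes. The pool block ended 3 of the KO calls, of Tnfaip3 (adjusted p = 0.0652), Birc2 (0.0903) and Traf2 (0.0938), and the WT call of Birc2 (0.101). Relb, a subunit of the non-canonical NF-kB pathway, was among those lower, at -1.36 in KO (SE 0.30) and -1.81 in WT (SE 0.31). Of 4 genes that control how long such proteins stay at the surface, none was called in any comparison (median -0.52 in cDC1). Marchf1, a ubiquitin ligase that removes CD86, averaged 260.4 ± 37.7 CPM in KO cDC1 and 409.9 ± 141 CPM in WT cDC1 (-0.65, SE 0.31, adjusted p = 0.283). Cmtm6, which stabilises PD-L1, averaged 239.8 ± 35.1 CPM in KO cDC1 and 270.2 ± 30.2 CPM in WT cDC1 (-0.17, SE 0.23, adjusted p = 0.732).

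The list of 22 dendritic cell maturation genes holds 6 of the 10 members. Of its other 16, 1 rose in KO cDC1, 2 fell and 13 were not called (median 0.36), against 3.60% higher and 1.72% lower over all genes. None of the 16 was called in cDC2. The ones that fell are inhibitors of proteases: Serpinb9 averaged 143 ± 31.7 CPM in KO cDC1 and 320.3 ± 59.7 CPM in WT cDC1 (-1.16, SE 0.23, adjusted p = 0.0108), and Serpinb6b 185 ± 8.41 CPM in KO cDC1 and 539.8 ± 239 CPM in WT cDC1 (-1.55, SE 0.35, adjusted p = 0.0237). The chemokine gene Ccl17 rose, at 4.03 ± 1.21 CPM in KO cDC1 and 0.361 ± 0.219 CPM in WT cDC1 (3.46, SE 0.83, adjusted p = 0.0303). These calls were lost without some single cDC1 libraries, with adjusted p up to 0.0764 for Serpinb9 (leaving out KO replicate 2 or 3 or WT replicate 3 of cDC1), 0.111 for Serpinb6b and 0.113 for Ccl17 (each without any 1 cDC1 library other than WT replicate 1). Ccl17 also lost its call with the replicate number as a block (0.0564). Ccr7, the receptor that guides mature cells to lymph nodes, averaged 656 ± 157 CPM in KO cDC1 and 476 ± 278 CPM in WT cDC1 and was not called. Between subsets, 6 of the 16 were higher and none lower in cDC1 within KO mice, against 8.45% and 8.43% of all genes. Within WT mice 4 were higher and 2 lower, against 10.4% and 10.9% of all genes.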

How the data were processed

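The authors aligned reads of polyA RNA libraries to GRCm38 (mm10) and counted them per gene with featureCounts, per the submitters' processing notes; versions, annotation and use of strand are not given in the sources used here. The deposited values are raw counts for 27179 genes under Entrez identifiers, with a gene length in bases, and the deposited table equals the 12 per-sample files. RefSeq's annotation of GRCm38.p6, the same build, gave symbols for 25275 genes, and its promoter windows the sequences shown, from which bases in untranslated exons of GENCODE's annotation of that build were left out. The members and gene lists were chosen with earlier results of these data known, so no list has a test of its own.

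Groups were taken from the labels. edgeR 4.0.16 (R 4.3.3) was fitted to all 12 libraries with 4 group means after filterByExpr (13415 genes), TMM scaling and robust quasi-likelihood dispersions, and p was adjusted by Benjamini-Hochberg over all genes tested. The SE came from dividing the size of a log2 fold change by the root of its F statistic. Its median over genes was 0.33 in each genotype comparison, which the depth of 11330503 to 36761685 counts and n = 3 allow. The test was run on simulated counts first. Log2 CPM used a prior count of 2, and RPKM is CPM per kilobase of the deposited length.

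The text names all 10 members, Zfp366, up to 4 called genes of each list per comparison by smallest p, and the 3 genes most like each member. Turnover genes, Ccr7, Cd70 and the neighbours of Cd274 were added after their values were seen. Alternatives were DESeq2 1.42.0, limma-voom 3.58.1, RLE scaling, no filter, each library left out, only the libraries compared, replicates 2 and 3 only, blocks, and offsets from a loess curve on gene length (span 0.5). Replicate numbers name different pools in KO and WT: residuals of same-numbered libraries correlated at 0.02, -0.07 and 0.11 in cDC1 and -0.05, -0.05 and -0.06 in cDC2, so the main fit has no block. Mouse pools join cDC1 to cDC2, per the labels, with residual correlations of 0.26, 0.14 and 0.14 in KO and -0.20, -0.11 and -0.07 in WT. Figures were drawn with matplotlib 3.10.9.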

Additional observations from a re-analysis of the deposited data

Results flagged for a closer look

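For 6 genes of the lists, none of them a member, the KO effect in cDC1 and in cDC2 differed in a test of that difference itself (edgeR interaction term, cDC1 effect minus cDC2 effect, log2). It was 4.47 for Cd226 (adjusted p = 0.00346), 3.93 for Tnfsf14 (0.0127), 2.98 for Tnfsf9 (0.0119), 2.22 for Tnfaip3 (0.0162), 1.72 for Lgals9 (0.046) and -2.07 for Icos (0.0136). Cd226 and Tnfsf9 passed in all 20 alternatives. Tnfsf14 missed with limma-voom (0.0605), and Icos without cDC1 KO replicate 2 or 3 (0.0616 and 0.0623). Tnfaip3 missed without cDC1 WT replicate 2 (0.0674), without cDC2 KO replicate 2 or 3 (0.0547 and 0.0648) and with the mouse pool as a block (0.0688). Lgals9 passed in 8 of the 20. For each of the 6 the cDC2 change was opposite in sign to that in cDC1. It was -1.76 for Tnfsf14 (SE 0.48), -0.84 for Tnfsf9 (SE 0.37) and -0.80 for Cd226 (SE 0.45). For Lgals9 it was -0.23 (SE 0.27), for Tnfaip3 -0.03 (SE 0.29) and for Icos 0.10 (SE 0.26). The cDC2 change did not pass on its own for any of the 6.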

How the results depend on the processing

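In KO against WT cDC1, 714 genes and 3 members were called. DESeq2 gave 1318 and 5, replicates 2 and 3 only 6438 and 10, and leaving out 1 library at a time 318 to 3052 and 1 to 6, the highest without cDC1 WT replicate 1. In cDC2 the counts were 0 and 0, and 1039 genes and 2 members (Cd40 and Marcksl1) with replicates 2 and 3 only. For the difference of the KO effects, 190 genes and 0 members were called, against 480 and 1 with DESeq2, 5157 and 6 with replicates 2 and 3 only, 303 and 1 with length offsets, 116 and 0 when mouse pools were blocked, and 110 to 501 and 0 to 3 with 1 library left out. Between KO subsets the counts were 2264 and 6, against 4172 genes with only the libraries compared, 6620 with replicates 2 and 3 only, and 1209 to 3382 genes and 3 to 6 members with 1 library left out. Between WT subsets they were 2846 and 5, against 1537 genes with only the libraries compared, 6391 genes and 9 members with replicates 2 and 3 only, and 5 to 8 members with 1 library left out. With the replicate number as a block the members called were 3, 0, 0, 6 and 5 in the same order, and the genes 733, 0, 193, 2430 and 3002; the numbers pair no KO with a WT pool. The mouse pool block left 5 members in either subset comparison, and among the members ended only the call of Cd80 in KO.

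No called member reversed. In cDC2, with replicates 2 and 3 only, uncalled changes turned to -0.18 for Cd80, 0.032 for Cd86, 0.064 for Pdcd1lg2, -0.27 for Icosl, 0.072 for Btla and -0.10 for Havcr2, and with length offsets to -0.10 for Cd274, -0.091 for Icosl and -0.02 for Havcr2. The difference of the KO effects for Cd83 turned to 0.35 with replicates 2 and 3 only. With 1 library left out, the cDC2 changes ran from -0.021 to 0.27 for Cd80, -0.23 to 0.18 for Cd86, -0.16 to 0.021 for Pdcd1lg2, -0.28 to 0.29 for Icosl and -0.041 to 0.23 for Havcr2, and the difference for Cd83 from -0.26 to 0.32. The cause was not tested. Pdcd1lg2 in WT cDC1 rests on 42 reads in its lowest library, and reads that carry no molecular identifier need not be separate molecules.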
